A study of Mus musculus with 4 samples.

Results

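The loci described here are those of 10 genes of the Hippo pathway: the transcription factor genes Tead1, Tead2, Tead3 and Tead4, the coactivator genes Yap1 and Wwtr1, the kinase genes Lats1 and Lats2, and Ankrd1 and Amotl2, which are known targets of the pathway. Open chromatin was mapped by ATAC-seq, where Tn5 transposase inserts adapters wherever DNA is exposed and clustered insertions are called as peaks. The cells were mpkCCD clone 11, a line of mouse cortical collecting duct cells, so all libraries come from 1 clone. Confluent layers on permeable supports, kept in medium free of serum and hormones, received 0.1 nM dDAVP (desmopressin, which acts on the vasopressin V2 receptor) or vehicle for 30 min, with 2 libraries of 50000 cells per treatment (passages 8 to 10). Before that, all cells had been maintained in medium with dialyzed serum, insulin, dexamethasone, triiodothyronine, epidermal growth factor, selenite and transferrin. Peaks of the 4 libraries that shared at least 1 bp were merged into 560228 regions, and 569 of these lay in or within 50 kb of the gene bodies of the 10 genes on mm10. Near that limit the farthest region taken lay 49816 bp from its gene and the nearest one left out 50050 bp, with 84 regions between 40 and 50 kb and 64 between 50 and 60 kb.

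The Hippo pathway is a kinase cascade that restrains growth. LATS1 and LATS2 phosphorylate YAP (encoded by Yap1) and TAZ (encoded by Wwtr1), which then stay in the cytoplasm or are degraded. When the kinases are inactive, as in spread or mechanically stretched cells, YAP and TAZ enter the nucleus and act through the DNA-binding TEAD proteins, which recognise the core letters GGAATG. In kidney epithelium the pathway is known for its part in nephron formation and in the response to injury and stretch.

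The peak lists hold positions only, so the number of reads behind a peak is unknown and a site without a peak was not called, which does not show that it was closed. The lists ranged in length from 205771 to 393956 peaks, the longest being that of vehicle replicate 1. The labels do not state whether replicates were separate cultures, so p-values measure the spread between these libraries, which may be technical. Of 10 principal-cell markers, 7 had a peak within 1 kb of a gene end in all 4 libraries, including Aqp2, Scnn1a and Hsd11b2. Aqp3 and Scnn1b had such a peak in the replicate 1 libraries only, and the V2 receptor gene Avpr2 in dDAVP replicate 1 and vehicle replicate 2 only. All 4 epithelial markers (Cdh1, Epcam, Krt8, Krt18) were open in every library. Of markers of other cells, 1 of 3 for fibroblasts (Col1a1), 1 of 3 for endothelium (Kdr) and 1 of 2 for leukocytes (Cd68) were.

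Promoter sequences from RefSeq (GRCm38.p6, the assembly that mm10 names), each 250 bases before to 50 after an annotated start, were found for 8 of the 10 genes, in 12 windows. No entry was matched for Tead1 and Tead4. The TEAD core GGAATG, searched on both strands as GGAATG or CATTCC, occurred in a window of 6 of these 8 genes (Tead3, Yap1, Wwtr1, Lats2, Ankrd1 and Amotl2), against 15.5% of 17491 protein-coding genes with such windows. By window it was present in 8 of 12, against 13.6% of 21262 windows of protein-coding genes and 11.3% of the 11679 of those that held a peak in all 4 libraries. Overlapping windows of a gene can share a match, and a match of 6 letters is a description of the sequence and not a bound site. Every match in the member windows lay inside a peak in all 4 libraries, and none overlapped another. Neither the AP-1 motif TGANTCA nor the cAMP response element TGACGTCA (both motifs read the same on the other strand) occurred in any of the 12 windows, against 6.99% and 2.23% of protein-coding windows. Among those that held a peak in all 4 libraries the shares were 4.59% and 3.36%. At such shares 12 windows, some of them overlapping, may well hold none. Neither absence says anything on those factors outside these letters and windows.

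The sequences that carry these matches are shown because they lie under peaks called in every library. Each runs 5′ to 3′ on the gene's strand, with the TEAD core in capitals. The stretches for Ankrd1 (chr19:36119845-36120094, minus strand), Amotl2 (chr9:102717554-102717803, plus strand), Yap1 (chr9:8004597-8004846, minus strand) and Wwtr1 (chr3:57575911-57576160, minus strand, its more upstream start) are the 250 bases before the start. For Tead3 (chr17:28350970-28350999 at the most upstream start and chr17:28350701-28350730 at the next, minus strand) and Lats2 (chr14:57746102-57746131, minus strand) 30 bases around the match are given.
Ankrd1: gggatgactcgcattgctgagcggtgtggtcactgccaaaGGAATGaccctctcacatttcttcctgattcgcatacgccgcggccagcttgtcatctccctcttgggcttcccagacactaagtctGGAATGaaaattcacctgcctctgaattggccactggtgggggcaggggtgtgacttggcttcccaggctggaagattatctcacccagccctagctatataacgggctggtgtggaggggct
Amotl2: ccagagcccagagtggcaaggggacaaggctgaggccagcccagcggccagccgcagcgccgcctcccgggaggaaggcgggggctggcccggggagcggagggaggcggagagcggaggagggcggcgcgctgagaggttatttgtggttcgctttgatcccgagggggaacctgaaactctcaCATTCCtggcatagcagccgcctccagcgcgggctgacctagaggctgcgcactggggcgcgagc
Yap1: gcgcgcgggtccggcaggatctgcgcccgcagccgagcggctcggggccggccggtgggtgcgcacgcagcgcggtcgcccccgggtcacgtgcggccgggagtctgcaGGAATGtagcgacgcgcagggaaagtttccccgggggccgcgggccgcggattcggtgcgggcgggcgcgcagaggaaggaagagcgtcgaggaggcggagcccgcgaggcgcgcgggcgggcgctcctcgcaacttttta
Wwtr1: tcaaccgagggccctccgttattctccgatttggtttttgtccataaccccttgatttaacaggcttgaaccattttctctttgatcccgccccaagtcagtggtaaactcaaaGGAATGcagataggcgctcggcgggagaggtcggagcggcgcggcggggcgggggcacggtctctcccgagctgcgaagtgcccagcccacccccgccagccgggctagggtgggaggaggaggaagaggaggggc
Tead3, upstream start: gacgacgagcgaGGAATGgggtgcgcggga
Tead3, next start: ccgggctCATTCCgtaCATTCCggccatcc
Lats2: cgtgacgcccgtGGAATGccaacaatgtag

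Ankrd1, a muscle and stress-response ankyrin-repeat gene widely used as a readout of YAP activity, carried 2 TEAD cores, beginning 210 and 123 bases before the start, a number reached by 1.14% of protein-coding windows. The pair in Tead3 stands as CATTCC on the gene's strand, with 3 bases between the copies, and a further GGAATG begins at base 3 of that transcript. With 3 matches the window was among the 0.108% of protein-coding windows that hold as many. In Amotl2 the match lay 65 bases before the start, in Yap1 141 bases and in Wwtr1 136 bases. The Lats2 match began at base 5 after the start. The windows of Tead2 and Lats1 held none.

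All 10 genes had a peak within 1 kb of a gene end in all 4 libraries, against 65.0% of 21883 protein-coding genes. For 9 of the 10 the widest such peak, averaged over libraries, was above the median of the 14215 genes open in all libraries (1001 bp), and the members' median was 1347 bp. Ankrd1 was the exception with 880 ± 189 bp (SD, n = 4). These shares are a description of genes chosen for their pathway, not of a random sample.

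**Figure D1:**
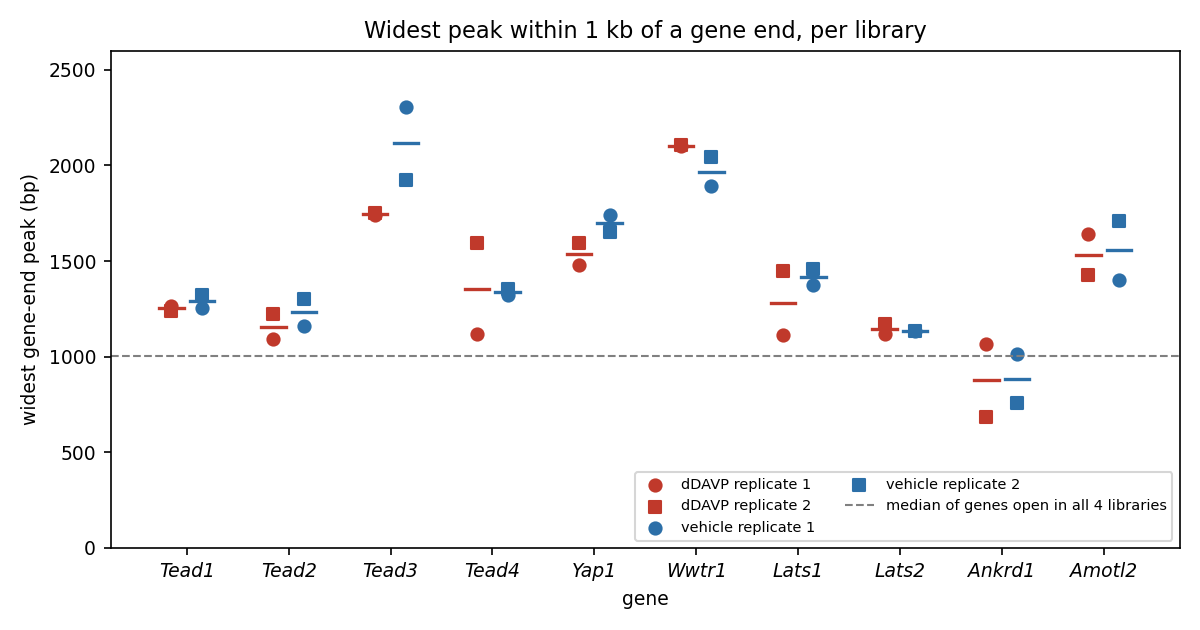
Widest gene-end peak in bp (y axis) for each of the 10 genes (x axis), with 1 point per library, dDAVP in red to the left of vehicle in blue, short lines at the treatment means and the dashed line at 1001 bp, the median of genes open in all 4 libraries. Wwtr1 and Tead3 lie highest, Ankrd1 lies lowest, and the treatments lie apart for Tead3, Yap1 and Wwtr1. By normalized summed width, 30% of all-library regions of the genome lie apart by treatment.

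The TEAD genes encode the DNA-binding partners of YAP and TAZ. Tead3 (chr17:28331671-28350805) had the widest gene-end peak of the group, 1740 and 1751 bp in dDAVP libraries, against 2308 and 1924 bp in vehicle libraries. That region, chr17:28349627-28351934, also holds an end of Tulp1, so it cannot be given to Tead3 alone. Tead4 (chr6:128227143-128300813), known for its role in the trophectoderm of the early embryo, had 1116 and 1593 bp in dDAVP libraries, against 1321 and 1352 bp in vehicle libraries. Tead1 (chr7:112679356-112906784) had 1265 and 1240 bp in dDAVP libraries, against 1257 and 1322 bp in vehicle libraries. Tead2 (chr7:45215792-45233468) had 1092 and 1221 bp in dDAVP libraries, against 1160 and 1304 bp in vehicle libraries. The treatments overlapped at Tead1, Tead2 and Tead4 and not at Tead3.

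Of the coactivators, Wwtr1 (chr3:57455644-57575910) had the widest gene-end peak of the 10 genes by the mean over 4 libraries (2036 bp, against 1931 bp at Tead3), with 2100 and 2108 bp in dDAVP libraries, against 1894 and 2042 bp in vehicle libraries. The widest single peak was that of Tead3 in vehicle replicate 1. The Wwtr1 mean exceeded that of 97.5% of the genes open in all libraries. Yap1 (chr9:7931999-8004638) had 1481 and 1594 bp in dDAVP libraries, against 1740 and 1653 bp in vehicle libraries. The dDAVP values were the wider ones at Wwtr1 and the narrower ones at Yap1, with no overlap at either gene. With 2 libraries per treatment such separation, as also at Tead3, is common. By another measure, normalized summed width, 30% of the 88231 all-library regions of the genome lay apart by treatment.

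Lats1 (chr10:7681200-7716461), a kinase that inactivates YAP and TAZ, had 1115 and 1447 bp in dDAVP libraries, against 1374 and 1458 bp in vehicle libraries. The region, chr10:7680527-7681984, also holds an end of Pcmt1, so it cannot be given to Lats1 alone. Lats2 (chr14:57689662-57746212), the paralog that is itself induced by YAP, had 1119 and 1169 bp in dDAVP libraries, against 1132 and 1134 bp in vehicle libraries, the smallest spread of the 10 genes (SD 21.4 bp over 4 libraries). RefSeq gives Lats2 a second start at position 57734418, and its window (chr14:57734369-57734668) was the only one of the 12 that held no peak in any library. The other 11 windows held a peak in every library, as did 54.9% of protein-coding windows, and each of their starts lay inside a peak. These 11 windows come from 8 genes, and some of them overlap. The Lats2 gene-end region, chr14:57745361-57746538, also overlaps the predicted coding gene Gm52140.

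Among the targets, Amotl2 (chr9:102717091-102733418), an angiomotin that holds YAP at junctions and is a YAP target, had 1640 and 1426 bp in dDAVP libraries, against 1403 and 1710 bp in vehicle libraries. It also had a region at its other end, chr9:102733800-102735224, in every library. Ankrd1 (chr19:36111965-36119844) had 1067 and 684 bp in dDAVP libraries, against 1015 and 755 bp in vehicle libraries. At Ankrd1 the replicate 1 libraries were wider than the replicate 2 libraries under both treatments, and at both target genes the treatments overlapped.

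Across the 10 loci, 98 of the 569 regions (17.2%) were held by all 4 libraries, against 15.7% of the 560228 regions of the genome. Of the 98, 12 lay at an end of the named gene, 28 elsewhere inside it, 12 at an end of another coding gene, 9 inside another coding gene and 37 outside coding genes. Their median width was 953 bp, against 770 bp for the all-library regions of the genome. Regions held by 1 library made up 55.5% at these loci, against 53.1% of the genome, with median widths of 139 and 153 bp. Of these 316, 177 belonged to vehicle replicate 1. They were 31.1% of all regions at the loci, against 27.2% of the genome.

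**Figure D2:**
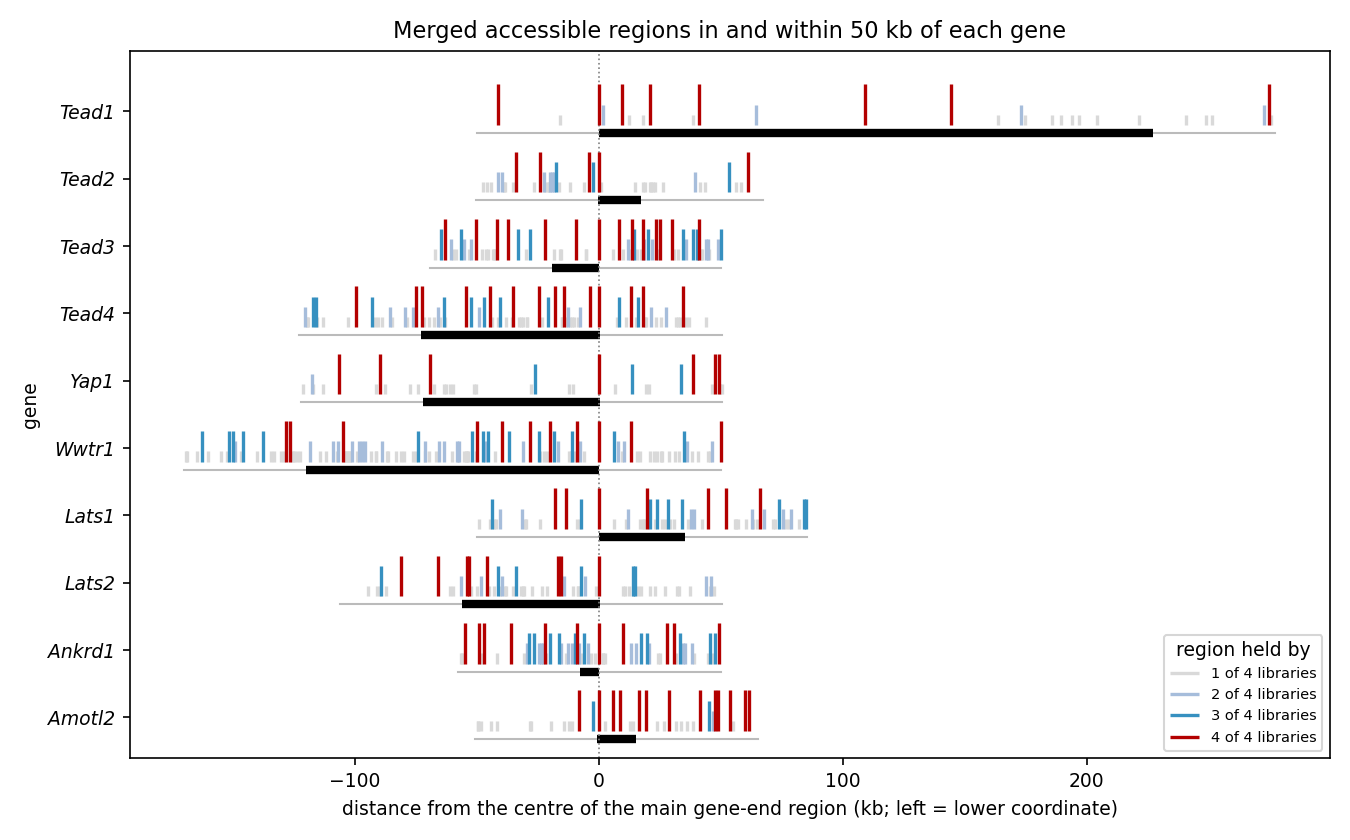
Merged regions along each of the 10 loci, by distance in kb from the centre of the main gene-end region (left is the lower coordinate), with taller and redder marks for regions held by more of the 4 libraries; the black bar is the gene body and the thin grey line its 50 kb surroundings. Tead4 has 7 all-library regions inside the gene besides its gene ends, and Amotl2 has 9 outside coding genes, all but 1 of them on the side of higher coordinates.

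Tead1 had 8 all-library regions over 327.4 kb. Of these 5 were inside the gene, 371 to 1099 bp wide, and 1 was at Rassf10, a gene of the RASSF family. The widest of all 98 regions, chr7:112636889-112639213, lay outside genes 40.1 kb below the lower-coordinate end of Tead1. It had 2321 and 2064 bp in dDAVP libraries, against 2072 and 2040 bp in vehicle libraries, and 98.5% of all-library regions of the genome were narrower. This region was wider than the gene-end region of Tead1 itself (1332 bp).

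Tead2 had 5 all-library regions, of which none was elsewhere inside the gene. The other gene-end regions were at Dkkl1, at Slc6a21 and at Pth2, the last also within 1 kb of an end of Kash5. The fifth, chr7:45191722-45192209 inside Kash5, had 309 and 488 bp in dDAVP libraries, against 416 and 276 bp in vehicle libraries. Tead3 had 14, of which only 2 were at or inside Tead3; 6 belonged to Ppard, Fance, Rpl10a and Tulp1 and 6 lay outside genes. The region inside Tead3, chr17:28340533-28341776, had 1144 and 1244 bp in dDAVP libraries, against 1025 and 978 bp in vehicle libraries. The widest one away from gene ends, chr17:28286765-28288244, lay inside Ppard 43.4 kb from Tead3 and had 345 and 994 bp in dDAVP libraries, against 518 and 989 bp in vehicle libraries.

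Tead4 also had 14, with 9 at or inside the gene. The widest, chr6:128274861-128276465, had summed peak widths of 1103 and 700 bp in dDAVP libraries, against 591 and 730 bp in vehicle libraries, and its merged span of 1605 bp was slightly wider than that at the gene end (1593 bp). The libraries therefore called different parts of it. A more even region, chr6:128200079-128201320, lay outside genes and had 1156 and 1214 bp in dDAVP libraries, against 1142 and 1200 bp in vehicle libraries.

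Yap1 had 7 all-library regions, 1 of them inside the gene away from its ends (chr9:7934560-7935322) and 4 outside genes. Wwtr1 had the most regions of any member, 116, but 68 of these were held by a single library and 11 by all. Of the 11, 6 were inside the gene away from its ends and 183 to 1142 bp wide. The widest Wwtr1 region away from gene ends, chr3:57588334-57589574, lay 12.4 kb from the gene, before its start. It had 532 and 619 bp in dDAVP libraries, against 1058 and 333 bp in vehicle libraries, so the vehicle values enclosed the dDAVP ones.

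Lats1 had 7 all-library regions, of which 2 were at or inside Lats1 and 5 at or inside Pcmt1, Nup43 and Katna1. The widest away from gene ends, chr10:7662474-7663817, lay inside Pcmt1 17.4 kb from Lats1 and had 1231 and 1310 bp in dDAVP libraries, against 1211 and 1320 bp in vehicle libraries. Lats2 had 8, with 5 inside the gene away from its ends, 599 to 1104 bp wide. Only 1 of the 5, chr14:57728471-57729386, was about as even as the start, with 907 and 875 bp in dDAVP libraries, against 916 and 868 bp in vehicle libraries. The others varied more. At chr14:57692233-57692843, for example, dDAVP libraries had 158 and 324 bp, against 611 and 273 bp in vehicle libraries. The widest away from gene ends, chr14:57664323-57665563, lay inside Xpo4 24.1 kb from Lats2 and had 1212 and 1142 bp in dDAVP libraries, against 1159 and 1143 bp in vehicle libraries.

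Ankrd1 had 11 all-library regions, and none besides the promoter was inside the gene. The widest, chr19:36128621-36130550, lay 8.8 kb before the start and had 1930 and 1452 bp in dDAVP libraries, against 1413 and 1327 bp in vehicle libraries. Its merged span exceeded that of the promoter region, 1067 bp. In 4 of 10 members a region away from gene ends had a wider merged span than the widest gene-end region of that member. These were Tead1, Tead4, Lats2 and Ankrd1, that of Lats2 being the region inside Xpo4. The margin was small at Tead4 (1605 against 1593 bp) and Lats2 (1241 against 1178 bp). In every library the summed width of the Tead4 region was below that at its gene end. Each member's widest of several regions was taken, and no share over all genes is given here. Amotl2 had 13 all-library regions out of 37, the highest share of any member (35.1%), and 9 of them were outside coding genes. The widest of these, chr9:102777427-102778640, lay 44.0 kb from the gene over the non-coding gene Gm46151 and had 829 and 991 bp in dDAVP libraries, against 1201 and 1018 bp in vehicle libraries.

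Set per length, Amotl2 had 11.2 all-library regions per 100 kb of its locus, a density above that of 94.8% of the 1201 coding genes of chromosome 9, whose median was 3.78. Tead3 had 11.8 per 100 kb (chromosome 17 median 7.10) and Tead4 had 8.06 (chromosome 6 median 3.14). Ankrd1 had 10.2 per 100 kb, below the median of chromosome 19 (13.0). Wwtr1 with 4.99 and Lats1 with 5.18 were also below their chromosomes' medians, 8.90 on chromosome 3 and 8.76 on chromosome 10. Tead1 with 2.44 was above 49.4% and Tead2 with 4.25 above 68.9% of the coding genes of chromosome 7. Yap1 stood at 4.05 against 3.78 on chromosome 9, and Lats2 at 5.11 against 3.65 on chromosome 14. In all 6 of 10 were above their chromosome's median, and the members' median was 5.14 against 4.66 over all coding genes.

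**Figure D3:**
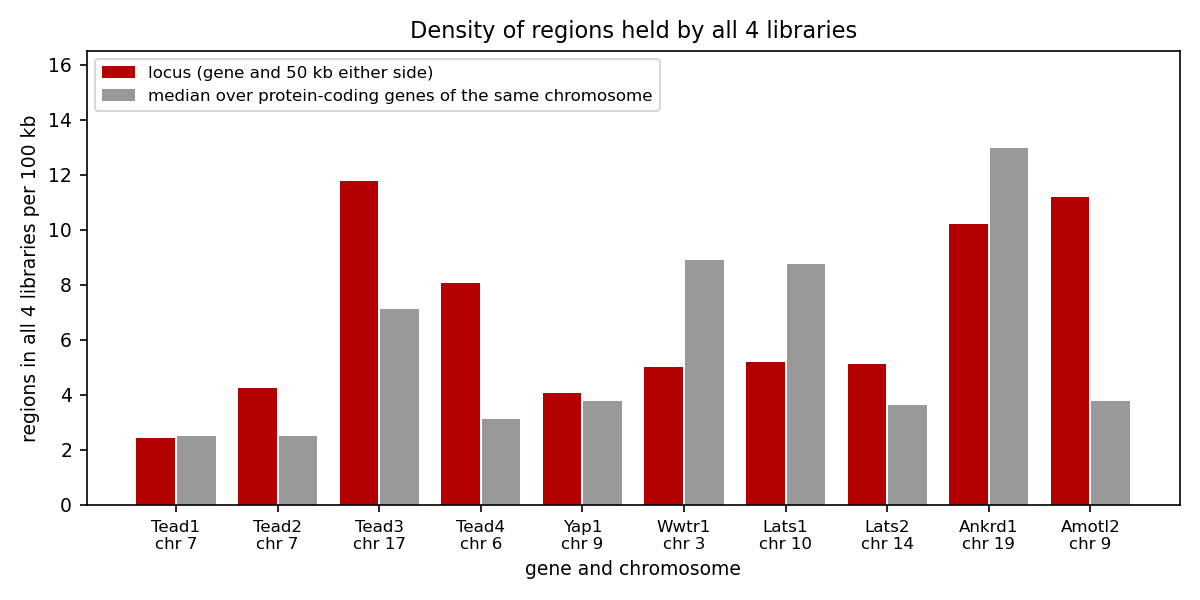
Number of regions held by all 4 libraries per 100 kb of each gene's locus (red bars, gene and 50 kb either side), beside the median over the coding genes of the same chromosome (grey bars), for the 10 genes on the x axis. Amotl2, Tead3 and Tead4 stand above their chromosomes, with 11.2, 11.8 and 8.06, and Wwtr1, Lats1 and Ankrd1 below, with 4.99, 5.18 and 10.2.

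The wider pathway was read from a list of 42 other genes. A gene-end peak was present in all 4 libraries at 38 of the 42 (90.5%, against 65.0% of coding genes). Upstream kinases and their adaptors were open at 12 of 12, the widest peaks being those of Wwc2, which encodes a WW and C2 domain scaffold (1868 ± 55.9 bp, SD over 4 libraries), the LATS-binding adaptor Mob1b (1751 ± 66.4 bp) and the FERM protein gene Frmd6 (1478 ± 136 bp). Junction and scaffold proteins were open at 7 of 8, led by the LIM protein genes Ajuba (1753 ± 1088 bp) and Limd1 (1700 ± 73.2 bp) and by the phosphatase gene Ptpn14 (1524 ± 100.4 bp). Ajuba measured 2371 and 548 bp in dDAVP libraries, against 2925 and 1166 bp in vehicle libraries, and the replicate 1 libraries were the wider ones. Amotl1, a paralog of Amotl2, had 425 and 0 bp at its gene ends in dDAVP libraries, against 700 and 98 bp in vehicle libraries.

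The TEAD cofactors Vgll4 (1625 ± 76.9 bp), Vgll3 (1407 ± 161 bp) and Vgll2 (973 ± 158 bp) were open in every library (SD, n = 4). Vgll1, on chromosome X, had no peak along the gene or at its ends in any library. Target genes were open at 16 of 18, with the widest peaks at Crim1 (1934 ± 205 bp), Arhgef17 (1881 ± 385 bp) and Dock5 (1627 ± 18.8 bp). The classical targets Ccn2 and Ccn1 (also called Ctgf and Cyr61), which encode matricellular proteins, were open in all libraries. Ccn2 averaged 1529 ± 31.2 bp (SD, n = 4), and Ccn1 had 1195 and 1971 bp in dDAVP libraries, against 1148 and 1226 bp in vehicle libraries. Only dDAVP replicate 1 had a peak at an end of Igfbp3 (108 bp), and no library had one at Rbms3, although every library had a peak somewhere along each gene or within 1 kb of it. The gene ends of none of the 42 were called in exactly the 2 libraries of a single treatment. The share over all coding genes is not given here. Among all regions of the genome such patterns made up only 1.61% (dDAVP pair) and 3.35% (vehicle pair), so this absence is not read as a trait of the pathway.

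The comparison on which the study was built set dDAVP against vehicle. At the 10 loci, 6 of 569 regions (1.05%) were called in the dDAVP pair and in no vehicle library, against 1.61% of the regions of the genome. In the other direction 15 of 569 (2.64%) were called in the vehicle pair and in no dDAVP library, against 3.35%. Both shares lay near the background and slightly below it, though not under every alternative setting (see the closing section). The difference from the background was not tested. Of the pairs that join unlike treatments, the replicate 1 libraries alone held 33 regions (5.80%, against 8.79% of the genome) and the replicate 2 libraries alone 6 (1.05%, against 1.19%). A further 19 were in dDAVP replicate 2 and vehicle replicate 1 alone, and 7 in dDAVP replicate 1 and vehicle replicate 2 alone. None of the 21 treatment-only regions was at an end of a member gene, and the share of all regions at such ends is not given here. Each treatment-only count rests on all libraries. Leaving out 1 gave 11 to 69 dDAVP-only regions (genome 2.85% to 15.8%) and 28 to 194 vehicle-only regions (genome 5.6% to 32.7%). These were of 402 to 540 regions in all.

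**Figure D4:**
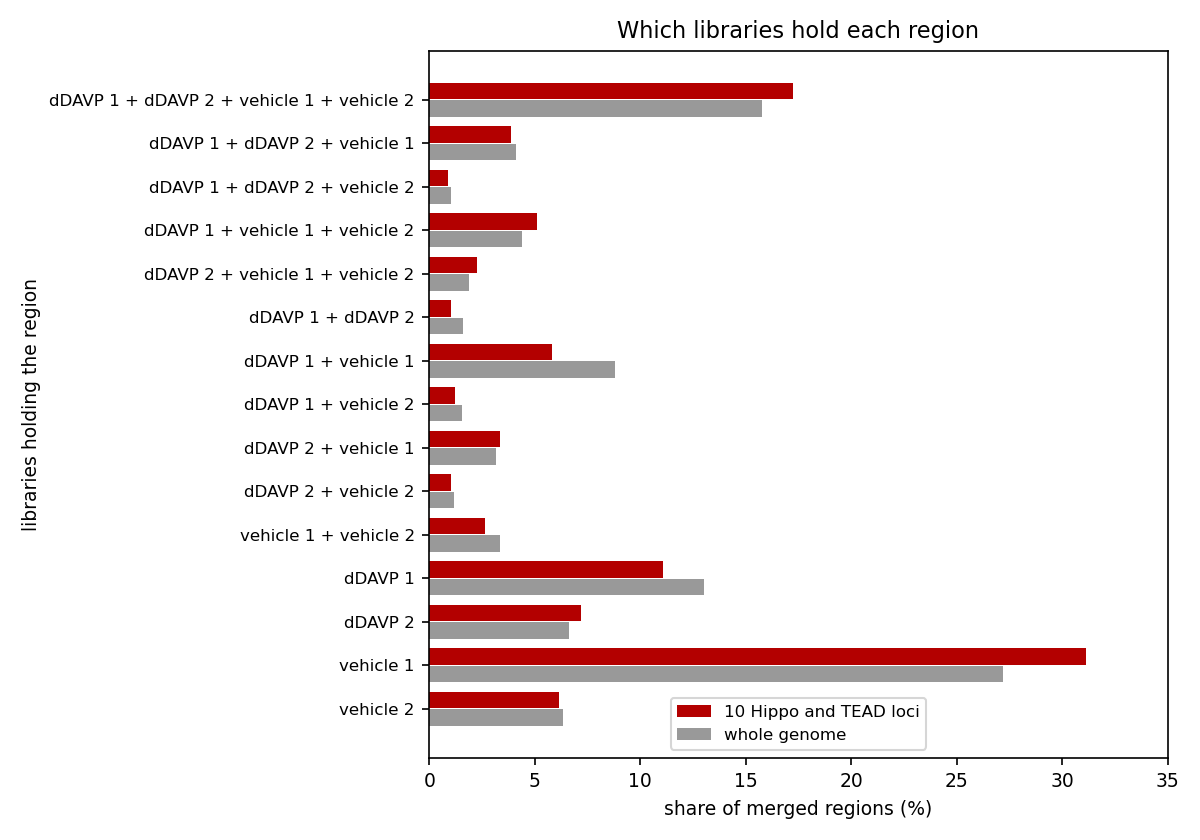
Share in percent of merged regions (x axis) held by each combination of the 4 libraries (y axis), for the 10 loci in red and the whole genome in grey. The red and grey bars follow each other closely; regions of vehicle replicate 1 alone are the largest class, at 31.1% and 27.2%, and the dDAVP-only and vehicle-only classes are at 1.05% and 2.64% for the 10 loci.

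The 6 dDAVP-only regions were narrow. Tead4 had 2 inside the gene, chr6:128234152-128234418, with 86 and 267 bp, and chr6:128287630-128287792, with 72 and 126 bp. Tead1 had chr7:112743789-112743962 inside the gene, with 103 and 163 bp. Wwtr1 had chr3:57477198-57477631 inside the gene, with 318 and 157 bp. The remaining pair lay inside neighbours, Kash5 beside Tead2 (chr7:45197797-45198148, 352 and 102 bp) and Rpp30 beside Ankrd1 (chr19:36096535-36096666, 86 and 97 bp). Of the 6, 4 were inside a member gene, as were 4 of the vehicle-only regions. The member gene bodies held 212 of the 569 regions.

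Of the 15 vehicle-only regions, 4 lay around Tead3. The widest of these, chr17:28386258-28386859, had 368 and 602 bp in vehicle libraries, and the others were at chr17:28298191-28298720 inside Ppard, chr17:28369243-28369508 and chr17:28395258-28395700. Ankrd1 had 3, at chr19:36108111-36108894 (704 bp in vehicle replicate 1), at chr19:36115026-36115363 inside the gene (338 and 99 bp) and at chr19:36132795-36133180 (270 and 268 bp). Tead4 had chr6:128223623-128224204 just outside the gene and chr6:128321475-128321970 at the end of Tulp3. Wwtr1 had chr3:57478549-57478844 inside the gene and chr3:57611584-57612072 outside it. Lats2 had chr14:57705742-57706187 and chr14:57740024-57740324, both inside the gene. Single regions stood at Tead1 (chr7:112952017-112952222) and, inside Katna1, beside Lats1 (chr10:7743803-7744082). Yap1 and Amotl2 had no treatment-only region of either kind.

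The loci held 274 and 217 peaks in dDAVP libraries, against 416 and 213 in vehicle libraries. The mean was 245.5 ± 40.3 peaks with dDAVP and 314.5 ± 144 with vehicle (SD, n = 2 each), a ratio of 0.781 (two-sided exact permutation p = 1.00; 2 against 2 cannot give a p under 0.33). Covered length was 98.1 ± 11.1 kb with dDAVP and 120 ± 45.1 kb with vehicle (ratio 0.821, exact permutation p = 1.00, n = 2 each). Vehicle replicate 1 decided the direction, and without it the ratios were 1.15 and 1.12. Divided by each library's own total they were 0.957 and 0.995. Over these loci the Jaccard index, the shared over the total length of a pair of peak sets, was 0.405 for the dDAVP pair and 0.348 for the vehicle pair. It was 0.441 for the replicate 2 libraries, 0.382 for the replicate 1 libraries and 0.424 and 0.360 for the crossed pairs. The highest index was that of a pair of unlike treatments. Over the whole genome the replicate 2 libraries were also highest, at 0.373. There the replicate 1 libraries had 0.343, the dDAVP pair 0.338, the vehicle pair 0.303 and the crossed pairs 0.341 and 0.298.

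The summed peak width was the graded value left for a test, and it was compared over all 88231 all-library regions with limma after quantile normalization. None of the 98 member regions passed an adjusted p of 0.05, and neither did any region of the genome (0% called). Without dDAVP replicate 1, 44 regions of the genome passed, and without dDAVP replicate 2 there was 1, none of them at the 10 loci. In these fits dDAVP is a single library assumed to vary like the vehicle pair, which alone gives the spread. At an unadjusted p below 0.05 there were 4 of 98, or 4.08%, against 4.53% of all regions. The median difference was 0.06 on the log2 scale, dDAVP minus vehicle, against 0.04 over all regions, and the median standard error was 0.49.

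**Figure D5:**
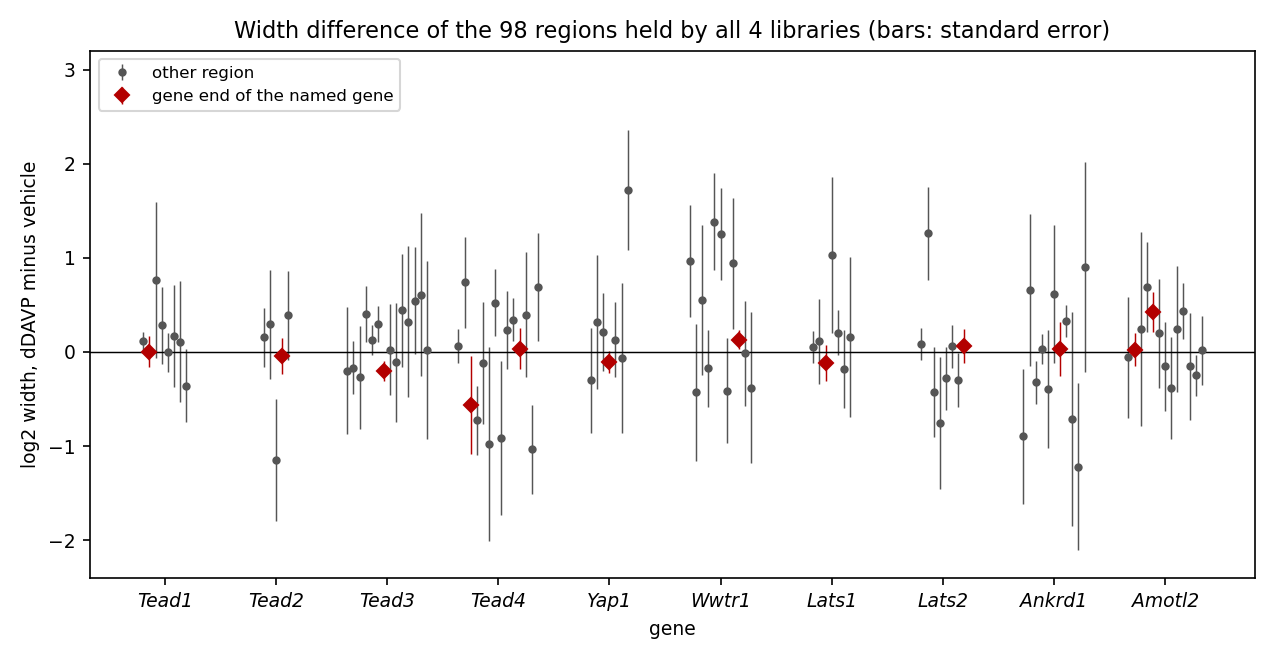
Difference in log2 summed peak width (dDAVP minus vehicle, y axis) with its limma standard error for the 98 regions held by all libraries, grouped by gene on the x axis in order of coordinate, with ends of the named gene as red diamonds. Gene ends lie between -0.57 and 0.42, while regions elsewhere range from -1.22 to 1.72.

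The promoters that lay apart by treatment were not told apart by that test. At Tead3 the log2 difference was -0.20 (95% interval -0.47 to 0.07, limma), at Yap1 -0.11 (-0.40 to 0.19) and at Wwtr1 0.13 (-0.12 to 0.39), each with an adjusted p of 1.00. Over all 98 regions normalized widths did not overlap between treatments at 17 with dDAVP wider (17.3%, against 16.7% of all regions) and at 10 with dDAVP narrower (10.2%, against 13.3%). At gene ends of the named genes these were 2 and 3 of 12. The interval of the second Tead4 end region (chr6:128227416-128228131) ran from -1.86 to 0.72.

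The 4 regions with an unadjusted p below 0.05 were all wider with dDAVP, where 1769 of the 4000 such regions of the genome were. At 48.1 kb before the start of Yap1, chr9:8052741-8053786 had 571 and 1019 bp in dDAVP libraries, against 182 and 319 bp in vehicle libraries, a log2 difference of 1.72 ± 0.64 (standard error, limma, adjusted p = 1.00). Inside Wwtr1, chr3:57535286-57536425 had 702 and 778 bp in dDAVP libraries, against 462 and 192 bp in vehicle libraries, and chr3:57546720-57547861 had 565 and 937 bp in dDAVP libraries, against 364 and 281 bp in vehicle libraries. At 9.2 kb from the lower-coordinate end of Lats2, chr14:57679471-57680441 had 744 and 542 bp in dDAVP libraries, against 282 and 288 bp in vehicle libraries. In each of the 4 the lower dDAVP value exceeded the higher vehicle value, which their choice by p-value favours. By normalized summed width 30% of the all-library regions of the genome lay apart by treatment in either direction. The 4 regions were picked for their p-values, and their number is near what the same threshold gave over all regions.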

How the data were processed

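ATAC-seq peak lists of 4 libraries of mouse mpkCCD cells were used. Build mm10 and the tools MACS2, bedtools, Picard, SAMtools, Bowtie2 and cutadapt appear, per the submitters' processing notes, without settings. The peak threshold, treatment of duplicates and any transposase shift were not given in the sources used here. Each library has 1 list as deposited by the authors, with chromosome, start and end only, and depth is unknown. Treatment and replicate number came from the titles.

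Peaks were merged at 1 bp of overlap, and touching peaks were kept apart. Coordinates are 1-based. Gene bodies came from RefSeq (GRCm38.p6, 21883 coding genes), which here gives no exons, so gene ends mean either outermost end ± 1 kb. Summed log2 widths per region were tested with limma 3.58.1 (R 4.3.3, quantile normalization, trend, Benjamini-Hochberg at 0.05) and totals with exact permutation tests. The steps were tested on simulated data. Alternatives were other distances and windows, wider peaks only, other normalizations, a replicate block and leaving out each library.

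The members and lists were chosen with earlier results of these data known. By the rule for named items, all members, pathway genes not open in every library, up to 3 of the widest per role, and the widest and treatment-only regions are named. Other genes and regions named (Ccn1, Ccn2, neighbours and some even regions) were chosen after their values were seen.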

Additional observations from a re-analysis of the deposited data

How the results depend on the processing

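The count of members open at a gene end in all libraries stayed at 10 under every alternative run, and that of pathway genes lay between 35 and 39. Held by all libraries were 176 of 902 regions within 100 kb and 39 of 212 with the gene body only, against 98 of 569. With peaks at least as wide as their library's median the count was 59 of 303. When peaks had to cover 50% of the region it was 48 of 569. Without 1 library it was 102 to 127, of 402 to 540 regions in all. Genome shares of this class under these alternatives are not given here. The dDAVP-only count of 6 was 10 of 902 within 100 kb, 3 of 405 with the widest 205771 peaks of each library (genome 2.75%) and 2 of 303 with peaks no narrower than their library's median (genome 1.74%), and the vehicle-only count of 15 was 9 of 390 within 25 kb and 4 of 212 in gene bodies (genome 3.35%). With the widest peaks the vehicle-only count was 16 of 405 (genome 3.01%). In gene bodies the dDAVP-only count was 4 of 212 (genome 1.61%). Both of these shares lay above that of the genome. Leaving out 1 library gave 11 to 69 dDAVP-only regions (genome 2.85% to 15.8%) and 28 to 194 vehicle-only regions (genome 5.6% to 32.7%), because fewer libraries define the class. The dDAVP/vehicle ratio of peaks ranged from 0.590 to 1.15 and that of covered length from 0.648 to 1.12 over the libraries left out, reversed in each case without vehicle replicate 1 (1.15 and 1.12); the cause was not tested. With the replicate block limma called 0 member regions, as in every other fit of widths, with 2 at an unadjusted p below 0.05 (3 to 5 in the other fits). The replicate 1 deviations of the treatments correlated at 0.0969 across regions, and nothing in the labels says that numbers pair the libraries. Depth is unknown, which limits every absence of a peak.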
